A study of Mus musculus with 4 samples.

Results

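Noncoding exons are the parts kept in the mature RNA of transcripts that encode no protein. In all, 200 peaks of IGF2BP2-associated RNA touched one outside the mitochondrial genome. They were all peaks of the 2 deposited lists whose authors' annotation gave the peak a share above 0 in noncoding exon, leaving out the mitochondrial chromosome. Replicate 1 held 72 of them among 15506 nuclear peaks (0.464%, exact 95% binomial interval 0.363% to 0.584%), and replicate 2 held 128 among 22563 (0.567%, 0.473% to 0.674%). The lists held 38081 peaks in all, mitochondrial ones included, and 37869 nuclear peaks had no share above 0 in noncoding exon. Whether a peak touched a noncoding exon or lay outside one is given by this annotation unless the reference is named. "Nuclear" here means encoded by the nuclear genome and does not say where in the cell the RNA was.

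The series is RNA immunoprecipitation followed by sequencing (RIP-seq) of IGF2BP2 in BMDMs, macrophages that are grown in culture from mouse bone marrow. Its 4 samples are 2 IGF2BP2 immunoprecipitation libraries and 2 input libraries, and the input libraries were not analysed here. The labels give no strain, age or treatment, and nothing in them ties a replicate to its own animal or culture, so differences between replicates may be technical. The antibody is listed as anti-IGF2BP2 in one label and as anti-Flag in the protocol. Of 8 macrophage markers, 6 had a peak on their own strand in each list (2545 and 4374 tags in all); Cd68 had one in replicate 2 only, Fcgr1 in replicate 1 only and Lyz2 in neither. Of 11 markers of T cells, B cells and neutrophils, Cd3e had 3 tags in replicate 1, and of 3 fibroblast markers Col1a2 had 9 tags there; the others had no peak.

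IGF2BP2 belongs to a family of RNA-binding proteins with paired recognition domains that attach to mRNAs, protect many of them from decay and have been described as readers of m6A, a methyl mark on adenosine. Noncoding transcripts are a mixed group: long noncoding RNAs (lncRNAs) that stay on chromatin or build nuclear bodies, host transcripts that are spliced to release small nucleolar RNAs (snoRNAs), which guide chemical changes on ribosomal RNA (rRNA), short structured RNAs made by RNA polymerase III, and transcribed pseudogenes, the disabled copies of genes. A peak in such an exon shows that the RNA was recovered in the immunoprecipitate. Without input values, these lists do not separate an RNA that was enriched from one that was plentiful.

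The sequences that follow are chosen from the recurring members, to show a structured RNA, an rRNA-like peak, a chromatin lncRNA, snoRNA hosts and a pair of identical summits. Each was read on the strand of the peak, 5′ to 3′, from GENCODE mouse release 21 on build GRCm38. The first 4 carry GGAC in capitals, the core of the m6A consensus: the replicate 2 peak of the small nuclear RNA Rn7sk, a window around the summit of the AY036118 peak, which holds no GGAC, the middle of the one stretch of Kcnq1ot1 found in both lists, and the 5′-most 300 nt of the Gm26870 peak. Gm26870 was in replicate 1 only and was added after its values were seen, to show its repeat. In the next pair, capitals mark the part that is an annotated snoRNA gene: Gm22357 within the stretch of Gas5 shared by the lists, and Snord22 within the replicate 1 peak. The last 2, in lower case throughout, are the stretches of Gm37194 common to both lists, where the summits fell on the same base.
Rn7sk, chr9:78175329-78175531, minus strand: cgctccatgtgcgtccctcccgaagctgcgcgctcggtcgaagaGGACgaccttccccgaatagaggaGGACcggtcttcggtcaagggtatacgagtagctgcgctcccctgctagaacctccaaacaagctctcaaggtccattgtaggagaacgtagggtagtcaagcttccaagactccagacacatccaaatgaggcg
AY036118, chr17:39846721-39846920, minus strand: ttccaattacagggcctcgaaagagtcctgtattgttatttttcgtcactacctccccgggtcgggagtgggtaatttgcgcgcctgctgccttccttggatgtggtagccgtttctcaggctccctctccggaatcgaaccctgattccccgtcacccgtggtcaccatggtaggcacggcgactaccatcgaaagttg
Kcnq1ot1, chr7:143295188-143295487, minus strand: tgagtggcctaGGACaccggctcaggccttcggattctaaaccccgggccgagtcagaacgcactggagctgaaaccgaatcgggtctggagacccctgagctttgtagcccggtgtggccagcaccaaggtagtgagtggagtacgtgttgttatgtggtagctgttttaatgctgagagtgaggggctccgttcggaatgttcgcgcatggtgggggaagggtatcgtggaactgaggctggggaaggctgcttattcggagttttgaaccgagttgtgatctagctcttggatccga
Gm26870, chr9:3000331-3000630, minus strand: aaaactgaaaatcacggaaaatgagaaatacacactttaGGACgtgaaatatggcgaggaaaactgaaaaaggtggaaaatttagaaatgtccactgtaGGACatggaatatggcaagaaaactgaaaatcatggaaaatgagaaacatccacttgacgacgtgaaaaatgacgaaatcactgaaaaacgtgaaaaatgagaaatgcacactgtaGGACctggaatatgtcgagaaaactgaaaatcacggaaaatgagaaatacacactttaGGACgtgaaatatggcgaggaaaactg
Gas5, chr1:161035955-161036137, plus strand: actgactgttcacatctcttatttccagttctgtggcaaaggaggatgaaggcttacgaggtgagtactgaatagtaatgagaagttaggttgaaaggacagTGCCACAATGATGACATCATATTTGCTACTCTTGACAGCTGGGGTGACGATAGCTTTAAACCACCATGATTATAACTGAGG
Snord22, chr19:8725875-8726094, plus strand: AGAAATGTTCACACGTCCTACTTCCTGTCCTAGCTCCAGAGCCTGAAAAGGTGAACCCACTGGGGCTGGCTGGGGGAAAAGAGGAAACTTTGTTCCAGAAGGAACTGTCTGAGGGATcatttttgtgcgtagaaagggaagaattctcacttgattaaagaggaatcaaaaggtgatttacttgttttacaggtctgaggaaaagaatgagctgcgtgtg
Gm37194, chr14:50062202-50062255, plus strand: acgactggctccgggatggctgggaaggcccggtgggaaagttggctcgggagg
Gm37194, chr14:50062285-50062317, plus strand: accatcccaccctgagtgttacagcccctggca

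Long noncoding RNA genes supplied most of the members. By the reference biotype of the gene the authors named, they held 54 of 72 members in replicate 1 (75.0%) and 94 of 128 in replicate 2 (73.4%). Small structured RNA genes held 7 and 10, pseudogenes 7 and 17, and genes with coding transcripts 3 and 4. The remaining 1 and 3 peaks had an identifier with no match in the reference. The members named 58 genes in replicate 1 and 100 in replicate 2, of which 50 and 84 had a single member peak.

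**Figure D1:**
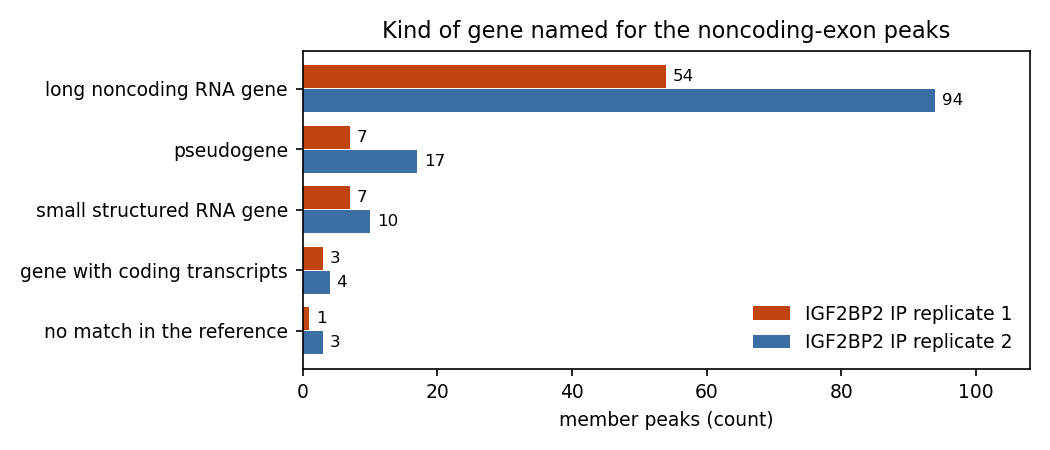
Number of member peaks (horizontal axis, count) by the kind of gene the authors named for the peak (vertical axis), with 1 bar for each immunoprecipitation library. Long noncoding RNA genes hold 54 peaks in replicate 1 and 94 in replicate 2, and no other class exceeds 17.

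Most members were weak and short, like the rest of the lists. A tag is a sequenced fragment counted in a peak, and the authors listed none with fewer than 3. The median member had 6.5 tags in replicate 1 and 6 in replicate 2, against 7 and 8 tags for other nuclear peaks. Members of 3 to 5 tags made up 41.7% and 34.4%, against 32.5% and 24.2% of other nuclear peaks. At the other end, 4 members in replicate 1 (5.56%) and 7 in replicate 2 (5.47%) had 50 tags or more, against 1.65% and 3.08% of other nuclear peaks. Median length was 221 and 224 nt, against 195 and 214 nt for other nuclear peaks. The noncoding exon covered the whole peak in 49 and 77 members, and 11 and 26 also lay in an intron. At the edge of the rule, 1 Tug1 peak of 10 tags in replicate 2 was inside with 2% of its length in noncoding exon, and 1 Mir22hg peak of 33 tags in replicate 1 was outside with a printed share of 0.

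A single peak held most of the tags. The peak named AY036118, a lncRNA gene on chromosome 17, had 4702 tags in replicate 1 and 5256 in replicate 2, which is 81.9% and 71.8% of all member tags (5740 and 7324). It ran over 2174 and 2045 nt, far beyond the 923 nt of the gene, and its summit lay on the same base in both libraries, at position 39846821 (GRCm38). That base lies outside AY036118 and inside CT010467.1, which the reference annotates as an rRNA gene on the same strand. From the textbook sequence of the ribosome, and not from these files, the letters printed for this peak are the reverse complement of the small-subunit rRNA, so as listed the peak stands on the strand opposite to that rRNA. Over the 5835 nt that hold Gm26917, AY036118 and CT010467.1, all 9 peaks of replicate 1 and all 10 of replicate 2 were on the minus strand. Reads of rRNA repeats can be placed at more than 1 copy, so the position is uncertain. Without AY036118 the members held 1038 tags in replicate 1 and 2068 in replicate 2.

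A pair of further strong members also lay in repeated or ribosomal sequence and were found in replicate 1 only. Gm26870 on chromosome 9 had a peak of 255 tags, 251 of them stacked at the summit, and none on its own strand in replicate 2. The opposite strand of the same place held 381 tags in replicate 1 and 525 in replicate 2. The 323 nt of this peak repeat: shifted by 234 nt, 98.9% of the 89 letters compared were equal, and the 50 nt around its summit also occurred in transcripts of 3 other genes. A unit of this form is known as the mouse major satellite, the repeat of the regions around centromeres. The other was n-R5-8s1, a gene for a ribosomal RNA of the large subunit, with 34 tags all stacked at the summit.

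Both recurring RNAs made by polymerase III had nearly the same number of tags in the libraries. Rn7sk encodes the RNA that holds the elongation factor P-TEFb inactive, and lies at chromosome 9, 78175303 to 78175633. Its peak had 61 tags in replicate 1 and 70 in replicate 2. Every tag was stacked at the summit, which was nucleotide 250 of 331 in both. The peaks covered nucleotides 103 to 314 and 103 to 305, so both left out the 5′ end of the RNA that opens the first stem. Vaultrc5, the RNA of the vault particle, had 112 tags in replicate 1 and 119 in replicate 2. The peaks spanned nucleotides 27 to 139 and 24 to 140 of its 143, with 111 and 119 tags at the summits, which lay 17 nt apart. Per 100 nt of peak these are 99.1 and 101.7 tags for Vaultrc5 and 28.8 and 34.5 for Rn7sk, against 216 and 257 for AY036118. No peak was listed on the annotated Rmrp, Rpph1 or Terc, other structured RNAs, on their own strand.

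**Figure D2:**
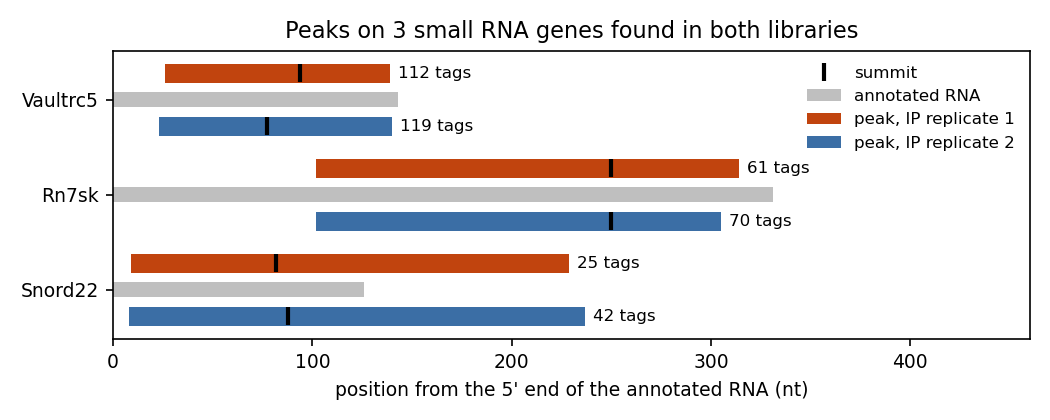
Position of the member peaks along 3 small RNA genes, in nt from the 5′ end of the annotated RNA (horizontal axis), with the replicate 1 peak above and the replicate 2 peak below the grey annotated RNA, black ticks at the summits and tag counts at the right. The Rn7sk summits coincide at nucleotide 250, and the Snord22 peaks run past the 126 nt of the snoRNA to nucleotides 229 and 237.

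The shared peaks at Snord22 and in Gas5 ran across the boundary between a snoRNA and its host transcript. A snoRNA or its Cajal-body relative, a scaRNA, was overlapped on the same strand by 7 members in replicate 1 and 12 in replicate 2, and the summit lay inside it in 6 and 9. Snord22, a box C/D snoRNA made from an intron of Snhg1, had 25 tags in replicate 1 and 42 in replicate 2. Those peaks covered nucleotides 10 to 229 and 9 to 237 of a 126 nt RNA, so their 3′ parts lay in the host transcript. The Snhg1 host was itself named for no peak. In the Gas5 host transcript, the peaks of 46 tags in replicate 1 and 58 in replicate 2 overlapped over 183 nt and had their summits, 18 nt apart, in the snoRNA Gm22357. By the authors' shares, 90% and 78% of these peaks lay in intron. Replicate 2 had 3 further Gas5 peaks of 24, 14 and 4 tags, for 100 tags in all. Snhg12 had a shared peak of 8 and 7 tags over Snora44 and, in replicate 2, a peak of 12 tags over Snora61. Of 20 snoRNA host genes listed, 17 were in the reference and 4 had a member: Gas5 and Snhg12 in both libraries, Snhg5 in replicate 2 (6 tags) and Snhg20 in replicate 1 (7 tags). Snhg8 (35 and 34 tags), Snhg9 (6 and 8) and Snhg17 (6 and 17) had peaks outside noncoding exons in both libraries.

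Kcnq1ot1 had the largest number of member peaks of any gene, in each library. This lncRNA is transcribed from the paternal chromosome, antisense to Kcnq1, and silences neighbouring imprinted genes. It had 8 peaks with 81 tags in replicate 1 and 6 peaks with 85 tags in replicate 2, all wholly in noncoding exon. Counting every peak on a gene's own strand, the lncRNA gene Mir99ahg had more in each library (16 and 13). The lncRNA gene Pvt1 had fewer in replicate 1 (7) and more in replicate 2 (20). No Kcnq1ot1 peak had fewer than 7 tags or more than 22. Measured from the 5′ end of the 93.1 kb gene (chromosome 7, 143203458 to 143296549), peak midpoints lay between 1.18 and 31.8 kb in replicate 1 and between 1.23 and 34.6 kb in replicate 2. No member lay nearer to the 3′ end. The pair nearest the 5′ end, with 17 tags in replicate 1 and 22 in replicate 2, was the only place where peaks of the libraries overlapped. Of 7 imprinted lncRNAs listed, Kcnq1ot1 was the only one with a member; Airn had peaks outside noncoding exons in both lists, of 19 and 102 tags in all, and H19, Meg3, Rian, Mirg and Peg13 had none.

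**Figure D3:**
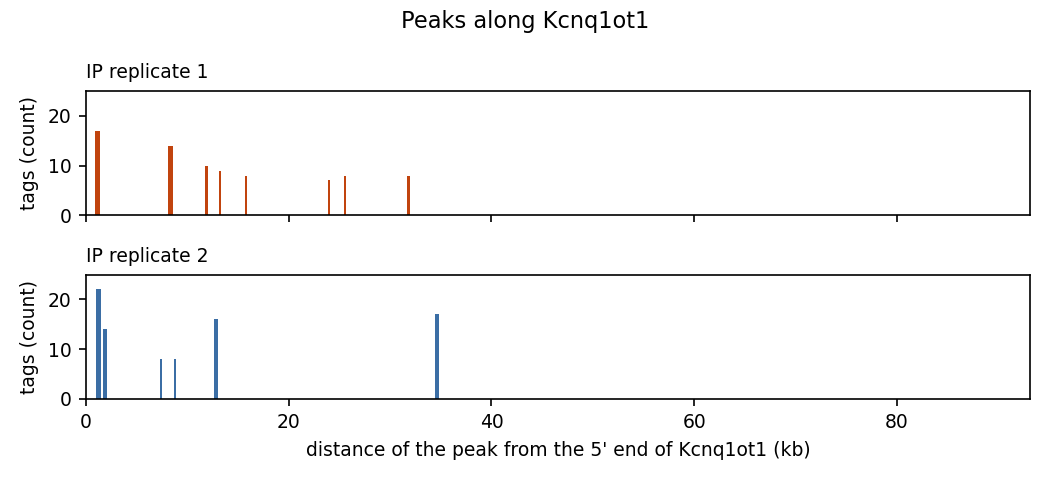
Member peaks along Kcnq1ot1, with distance from its 5′ end in kb (horizontal axis, drawn over the whole 93.1 kb gene), tag counts as bar heights and peak lengths as bar widths, for replicate 1 above and replicate 2 below. All 8 peaks of replicate 1 and all 6 of replicate 2 have midpoints within 34.6 kb of the 5′ end, and only those nearest the 5′ end overlap.

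None of the other nuclear-retained lncRNAs listed had members that overlapped between the libraries. Neat1, the scaffold of paraspeckles, had 1 peak of 415 tags in replicate 2, which was 3113 nt long with at most 68 tags at 1 position and centred 13.9 kb into the 20.8 kb gene. Replicate 1 listed no Neat1 peak. Tug1, a chromatin-associated lncRNA, had 2 members with 25 tags in replicate 1 and 1 with 10 tags in replicate 2; these members did not overlap each other. One of the replicate 1 Tug1 members was overlapped by an intronic Tug1 peak of 11 tags in replicate 2. Malat1, an abundant lncRNA of nuclear speckles, had no peak on its own strand, and 3 and 1 peaks on the opposite one. Xist and Jpx had no peak on either strand. Pvt1, Ftx and Dleu2 had peaks outside noncoding exons in both libraries (for Pvt1 67 and 250 tags), and Firre had those and 1 member of 5 tags in replicate 1. Intronic Firre peaks of 4 tags in replicate 1 and 5 in replicate 2 overlapped each other. Of 12 such genes listed, 11 were in the reference and 5 had a member, 2 of them in both libraries; the fifth was 2900097C17Rik, with 5 tags in replicate 2. Of 13042 lncRNA genes in the reference, 42 had a member in replicate 1 (0.322%) and 68 in replicate 2 (0.521%).

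Members lay in 2 of 8 listed hosts of microRNAs (replicate 1) and in 2 of 15 lncRNAs described in macrophages (replicate 2). Over all 13042 lncRNA genes in the reference, 0.322% had a member in replicate 1 and 0.521% in replicate 2. Mir22hg, the host of miR-22, had a member of 17 tags and Mir99ahg one of 12 tags, both in replicate 1 only, although Mir99ahg had 15 and 13 other peaks on its strand. The remaining 6 of 8 listed microRNA hosts, Mir155hg and Mir17hg among them, had no peak on their own strand. Of 17 macrophage and immune lncRNAs, 15 were in the reference and 2 had a member, in replicate 2 only: Lncpint with 12 tags and AI662270 with 8.

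Across lncRNA genes, peaks touching a noncoding exon by the authors' shares were a minority. On the strand of these genes the lists had 186 peaks in replicate 1 and 319 in replicate 2, of which members were 29.0% (22.6% to 36.1%) and 29.5% (24.5% to 34.8%). The members were overlapped in the other library in 29.6% and 14.9% of cases, and the peaks of these genes outside noncoding exons in 20.5% and 13.3%. These shares depend on the authors' annotation and were not recomputed under the reference. By the reference, 381 nuclear peaks that were not members overlapped an exon of a gene with no coding transcript. For 212 of them the authors' annotation began with intron. Some lncRNA names hide a coding gene. By gene symbol, RefSeq lists as protein-coding the genes of 4 of these members in replicate 1 and 13 in replicate 2, among them Cct6a, a subunit of the CCT chaperonin (1 member of 7 tags and 5 of 47 tags in all), and Trerf1, a transcriptional regulator (1 of 11 tags and 3 of 62 tags in all).

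Peaks named for a noncoding gene sometimes lay on an exon of a coding one. A coding gene's exon on the same strand was overlapped by 11 members in replicate 1 (15.3%, 7.88% to 25.7%) and 15 in replicate 2 (11.7%, 6.71% to 18.6%), with coding sequence involved in 7 and 13. Of them, 2 and 3 were named by the authors for a gene with coding transcripts. In the other 9 and 12 the exon belonged to a coding gene that the authors had not named for the peak. Gm20427 overlaps Slc39a7, a zinc transporter, and had 2 peaks with 53 tags in replicate 1 and 2 with 34 in replicate 2, over Slc39a7 coding sequence. Gm43055 overlaps Ythdc1, which encodes a nuclear m6A reader, and had a shared peak of 5 and 6 tags. The authors named Ythdc1 itself for a member of 35 tags in replicate 2. Reads in such exons cannot be assigned to one gene or the other. A further 14 and 22 members lay antisense to a coding gene.

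The rest of the recurring members lay in pseudogenes, in transcripts of weak annotation, in further lncRNA genes and in a coding gene. Gm8995, a transcribed pseudogene, had 12 tags in replicate 1 and peaks of 31 and 15 in replicate 2. Gm20056, a processed pseudogene, had peaks of 14 and 9 tags in replicate 1 and 7 in replicate 2. In 2610005L07Rik the peaks had 4 and 11 tags. H2-K2, a pseudogene of the major histocompatibility complex, had 10 tags in replicate 2 only. Reads of a pseudogene and its parent gene may be split between them, so these assignments are uncertain. Among the transcripts that GENCODE marks as still needing experimental evidence, Gm37352 on chromosome 8 had 25 tags over 317 nt in replicate 1 and 218 over 2466 nt in replicate 2, and the longer peak covered a separate intergenic peak of 71 tags in replicate 1 as well. Gm37194 had 2 shared stretches with the same summits in both lists, of 8 and 6 tags in replicate 1 and 12 and 8 in replicate 2. Smaller shared peaks were those of Rnf149, a coding gene (8 and 12 tags), of the lncRNA genes Gm7292 (7 and 13), AI506816 (6 and 9), 4833445I07Rik (6 and 4) and Gm8066 (8 and 3), and of Gm42826 (6 and 6). In replicate 2 only, Gm43305 had 121 tags, Gm20186 40 and an unmatched identifier 31, and in replicate 1 only the scaRNA gene Gm23119 had 19.

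**Figure D4:**
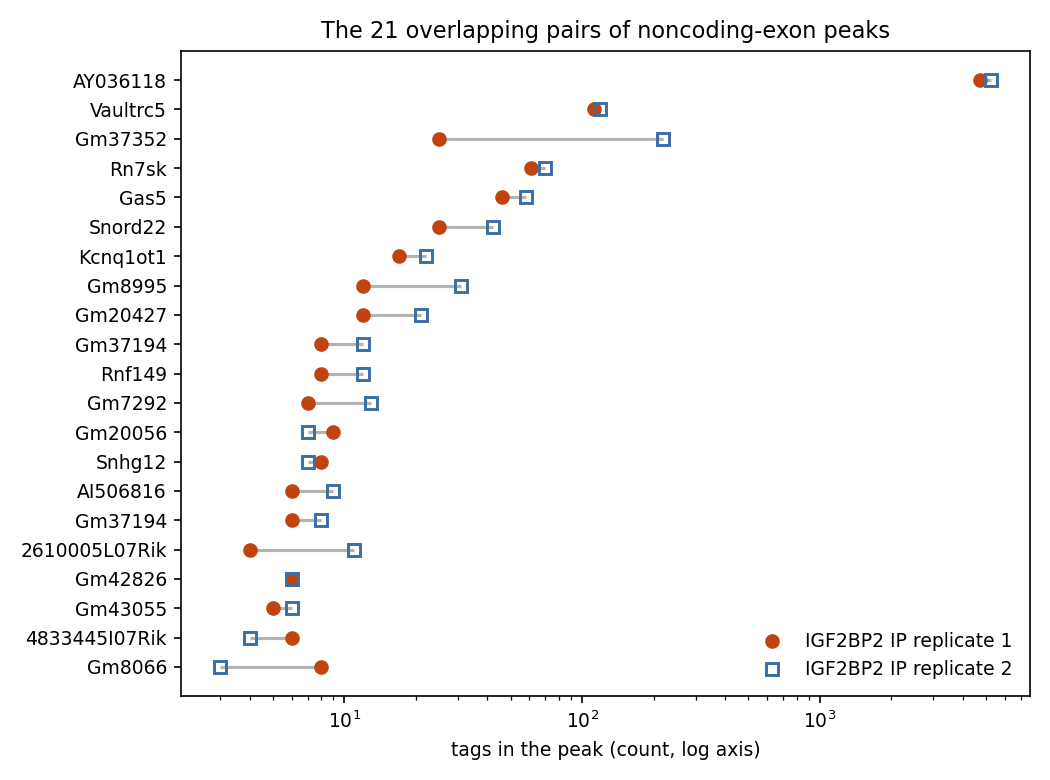
Tags per peak (horizontal axis, count on a log scale) of the 21 pairs of member peaks that overlapped between the libraries, 1 row a pair, with replicate 1 as filled circles and replicate 2 as open squares. Replicate 2 is higher in 16 pairs, replicate 1 in 4 and 1 is tied. Gm37352 shows a wide gap, 218 tags in replicate 2 beside 25 in replicate 1. Its replicate 2 peak also covers a replicate 1 peak of 71 tags that is not a member and not drawn. Narrow gaps include those of AY036118, Vaultrc5 and Rn7sk.

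Where members were shared, their summits lay within 50 nt about as often as in other nuclear pairs. The 21 overlapping pairs came from 20 genes and had a median distance of 18 nt between summits, against 31 nt for 5548 other nuclear pairs. Of the 21, 14 lay within 50 nt (66.7%, against 62.3%), and 5 had the same summit. The largest distance was 1364 nt, in Gm37352, against 2385 nt in other nuclear pairs. The long replicate 2 peak of Gm37352 also covered a replicate 1 peak that was not a member. That peak had 71 tags and its summit lay 37 nt from the replicate 2 summit. Of the 20 genes, 10 kept an overlapping pair when the whole of both peaks had to be noncoding exon, which AY036118, Gas5, Snord22 and Gm37352 did not, and 16 kept one at 6 or more tags. Replicate 2 had more tags in 16 of the 21 (76.2%, against 73.1% of other pairs), and the median ratio of replicate 2 to replicate 1 was 1.29, against 1.39. The whole nuclear lists differed by more, with 308880 tags in replicate 2 and 171430 in replicate 1, a ratio of 1.80. Vaultrc5 (1.06), AY036118 (1.12) and Rn7sk (1.15) were below both ratios, as were other pairs such as Gm43055 (1.2) and Gas5 (1.26). Gm37352 (8.72) was far above, with its replicate 1 member alone counted. Per 100 nt, its replicate 2 peak held 8.84 tags, and the 2 replicate 1 peaks it covered held 7.89 and 9.23.

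Recurrence of the members in the other library was higher for stronger peaks, and the same held for other nuclear peaks. With overlap of at least 1 bp on the same strand, 24 of 72 members in replicate 1 were overlapped in replicate 2 (33.3%, 22.7% to 45.4%), where 34.8% of all nuclear peaks of replicate 1 were. In replicate 2, 21 of 128 were overlapped in replicate 1 (16.4%, 10.5% to 24.0%), where 23.6% of all its nuclear peaks were. By strength, members of replicate 1 were overlapped in 10.0%, 45.5%, 50% and 75.0% of cases at 3 to 5, 6 to 9, 10 to 49 and 50 or more tags, against 11.1%, 31.6%, 59.9% and 76.5% of other nuclear peaks. In replicate 2 the shares were 4.55%, 13.6%, 24.2% and 71.4%, against 5.55%, 14.1%, 38.0% and 75.3%. The widest gap below other peaks was the 24.2% at 10 to 49 tags in replicate 2, whose interval (11.1% to 42.3%) still held the 38.0% of other peaks. These intervals cover counting error only, and no test across libraries is possible with 1 list each.

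**Figure D5:**
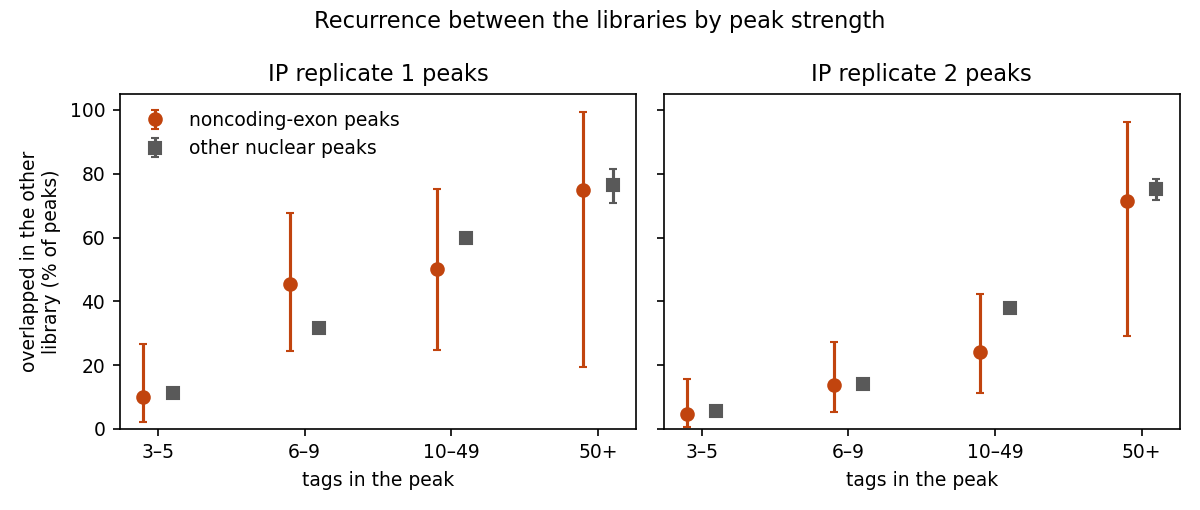
Share of peaks overlapped on the same strand in the other library (vertical axis, percent) by tags in the peak (horizontal axis), for peaks of replicate 1 at the left and replicate 2 at the right; circles are members, squares other nuclear peaks and bars exact 95% binomial intervals. In both panels the shares are higher at more tags for members and other peaks, and each interval of the members contains the value of the other peaks.

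By gene, sharing was lower than in the lists as a whole. A member in both libraries was found for 27 genes, which is 46.6% of the 58 genes of replicate 1 and 27.0% of the 100 of replicate 2. Counting any peak on the gene's strand in the other library, 33 genes were shared (56.9%, 43.2% to 69.8%, and 33.0%, 23.9% to 43.1%), where 77.0% of all genes with such a peak in replicate 1 and 62.9% of those in replicate 2 had one in the other. Of the member genes 50 and 84 had a single member peak; the part of peak number in this difference was not tested. The 7 genes with members in both libraries but no overlap were Trerf1, Tug1, Cct6a, Gm36995, Gm17160, B930036N10Rik and Ptpmt1.

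The m6A core motif occurred in a share of members whose interval contained that of other peaks. Sequence could be read for 124 of the 200 members, those lying within 1 exon of a reference transcript, and the strand of the peak alone was searched. GGAC occurred in 50.8% of them (41.7% to 59.9%), against 57.4% of 10169 other nuclear peaks (56.4% to 58.4%) and 49.1% of 89621 windows of 215 nt from all lncRNA transcripts. Per kb this was 3.79, against 4.48 in other nuclear peaks and 3.33 in the windows. GGACT, which contains GGAC, occurred in 16.9%, 23.9% and 19.6%. ACACA, a CA-rich element that IGF2BP proteins are known to bind, occurred in 16.9%, 17.2% and 29.3%. G and C made up 48.6% of the letters of members, 51.1% of other nuclear peaks and 45.2% of the windows. A match is a run of letters and does not show methylation or binding.

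The count of members rests on the authors' annotation. With the reference in its place, 576 nuclear peaks overlapped an exon of a gene with no coding transcript on the same strand. They include 195 of the 200 members. Of the other 381, the authors' annotation began with intron for 212 and with coding sequence for 70, and 135 also overlapped an exon of a coding gene.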

How the data were processed

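RNA recovered with IGF2BP2 from mouse BMDMs was sequenced as paired-end libraries made with random hexamers, per the labels' protocols. bcl2fastq and TopHat2 were used on build GRCm38, per the submitters' processing notes. How peaks were called, at which threshold and whether against input is not given in the sources used here. Each deposited peak has, per the file headers, a whole tag count, not normalized, a maximum height (a coverage signal), a length, a summit, region shares and a gene identifier. Library depth is therefore unknown; tags in nuclear peaks were 171430 and 308880. PCR copies were not removed by molecular identifiers, so intervals cover counting error only.

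Members were taken by region share. Of the 200, 196 identifiers matched GENCODE mouse release 21, which gave biotypes, spans and sequences; RefSeq biotypes (GRCm38.p6) were matched by symbol. Overlap was at least 1 bp on the same strand. Exact binomial (Clopper-Pearson) 95% intervals were computed with scipy 1.17.1 in Python 3.11.15 with pandas 2.3.3 and numpy 2.4.6. The overlaps and the reading of peak sequences were tested on simulated data. No p-value is given: each library has 1 list, and peaks are not replicates.

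The members, the 6 gene lists and the named genes were chosen with earlier results of these data known. The text names every gene with overlapping members in both libraries, the 5 genes of each library with the strongest unshared member, and list genes with a member; other genes were chosen after their values were seen. Alternatives changed the share in noncoding exon, the tag minimum, the overlap rule, the annotation, the motif and the library. Mitochondrial peaks were left out.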

Additional observations from a re-analysis of the deposited data

Results flagged for a closer look

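The mitochondrial genome was outside the rule, and 4 of its peaks touched a noncoding exon, with more tags than nearly all nuclear members. In replicate 1 the peak named mt-Tv had 6700 tags (positions 79 to 1049) and that named mt-Nd1 had 11155 (1087 to 3693). In replicate 2 the mt-Nd1 peak had 13688 tags (1087 to 3702) and the mt-Tp peak 305 (14158 to 15359). By the authors' shares, 64% of the mt-Nd1 peak lay in noncoding exon in each library. No control values were available for these peaks here.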

How the results depend on the processing

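The number of members depended on the rule. It was 200 as reported, 126 with the whole peak in noncoding exon, also 126 with 6 or more tags, 576 by the reference annotation, and 72 to 128 with either library left out. Genes with a member in both libraries numbered 27, and 14 with the whole peak in noncoding exon. The median tag count was 6 overall and 6 to 6.5 with either library left out. The share holding a motif was 50.8% for GGAC, 16.9% for GGACT and 16.9% for ACACA. Under the other alternatives, the share of members overlapped in the other library stayed within its interval, at 27.8% to 45.2% for replicate 1 and 14.8% to 22.0% for replicate 2. Overlap between libraries cannot be computed with 1 library left out. No paired analysis was possible because the input libraries, which share replicate numbers with the immunoprecipitates, were not analysed here. Small counts limit each class, and a place with no peak may still hold tags below the unknown threshold of the peak caller.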
